A study of Mus musculus with 11 samples.

Results

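Integrins are cell surface receptors made of 1 alpha and 1 beta chain, and leukocytes use them to hold on to vessel walls, to other cells and to the matrix of tissues. LFA-1, the pair of the *Itgal* and *Itgb2* products, binds ICAM proteins during arrest on endothelium and during contact with antigen presenting cells. VLA-4, the pair of the *Itga4* and *Itgb1* products, binds VCAM1 and fibronectin, whereas the *Itga4* chain with the *Itgb7* chain binds MADCAM1, and the *Itgae* chain with the *Itgb7* chain binds E-cadherin on epithelium and marks T cells retained in tissue. The transcripts of 10 such genes, *Itga4*, *Itgal*, *Itgb1*, *Itgb2*, *Itgb7*, *Itgae*, *Itga1*, *Itga2*, *Itgav* and *Itgb3*, were described in renal CD4+ T cells after kidney ischemia-reperfusion injury (IRI). They were chosen by symbol, as integrin chains of T cell adhesion and tissue retention, from a table of 35814 gene symbols, and all 10 were found. The differences in counts between the 3 genotypes were already known when the list was drawn up, so the fold changes and adjusted p values of these 10 genes are a description and support nothing further.

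The 11 libraries are biological replicates by their labels, 3 labelled CD4cre, 5 labelled CD4IKK1 and 3 labelled CD4NIK, all from C57BL/6 mice on day 2 after IRI. The study gives the same numbers of mice for its groups. The p values measure the spread between these libraries. All 3 groups express Cre recombinase under the CD4 promoter, which is also active in the thymic precursors of CD8+ T cells. CD4IKK1 mice carry in addition a floxed *Chuk* gene, which encodes IKK1, and CD4NIK mice a floxed *Map3k14* gene, which encodes NIK, whereas the CD4cre control carries neither. The mice were male, 8 to 12 weeks old, and had 45 min of bilateral ischemia. The cells were enriched with magnetic beads, sorted by FACS, and their RNA was amplified before sequencing.

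The libraries held from 15751632 to 25737046 estimated counts, so that the floor of 3 counts used here corresponds to between 0.117 and 0.190 CPM (counts scaled to the normalized library total). Such floors cover counting error only. *Chuk* had between 325 and 683 counts in CD4cre libraries and between 258 and 588 in libraries labelled CD4IKK1, and *Map3k14* had between 294 and 506 counts in CD4cre libraries and between 232 and 626 in libraries labelled CD4NIK, so neither targeted transcript separated its group. The groups are named by their labels throughout, and summed counts per symbol do not resolve the floxed exons. The sum of 16 Pan T transcripts (T cell receptor constant regions, CD3 chains, *Cd4*, *Lck* and others) ran from 1660 to 3136 CPM in CD4cre, from 17.45 to 1438 CPM in CD4IKK1 and from 8532 to 12650 CPM in CD4NIK libraries. In CD4IKK1 replicates 1 and 2 this sum was 270 and 2943 counts, against at least 13310 in every other library, and *Cd247* was at 0 in 2 and *Cd3g* in 1 of the CD4IKK1 libraries. The sum of 7 neuronal transcripts moved the other way, with 1856 to 2234, 2380 to 2730 and 639 to 1274 CPM in the same order. In bulk samples, fewer T cells and less RNA per T cell cannot be told apart. Values are therefore printed by library, and integrin counts are also given per 1000 Pan T counts.

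The values of the table do not always stand for whole genes. Of 46 genes of the proteasome core, the CCT chaperonin, EIF3 and RNA polymerase II that are in the table, which every cell needs, 4 had a median under 1 CPM over the libraries, and *Psma5* stayed at or under 3 counts in all 11. That list was chosen after such values were seen. A low value is therefore read as a listed value and not as absence of the gene, levels are compared between libraries and not between genes. The listed values of *Itgb1*, *Itgb2* and *Itga2* are read in this way.

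*Itga4*, the alpha chain of VLA-4, lies on chromosome 2 of GRCm39 from 79085660 to 79163467 and had close values within each genotype. It had 44.1, 42.6 and 39.6 CPM in the CD4cre libraries, 15.9, 19.8, 19.3, 27.8 and 22.03 CPM in CD4IKK1 replicates 1 to 5, and 133, 189 and 181 CPM in the CD4NIK libraries. No library of one genotype reached into another: all CD4IKK1 libraries were under all CD4cre libraries, and all CD4NIK libraries were above both. Its means were 42.1 ± 2.27, 21.0 ± 4.41 and 168 ± 30.5 CPM (SD, n = 3, 5 and 3). The promoter of *Itga4* is shown because this gene separated all groups, and the promoter of *Itga1* because this collagen receptor separated CD4NIK from the other libraries. The RefSeq promoter table (build GRCm38.p6, 250 bases before to 50 after the start of the gene) holds 6 of the 10 genes. *Itgal*, *Itgb2*, *Itgae* and *Itgb3* are not among them. Of *Itga4*, chr2:79255176-79255475 on the plus strand, and of *Itga1*, chr13:115101915-115102214 on the minus strand, the sequences are written along the strand of the gene, with matches to the searched motifs in capitals.
Itga4: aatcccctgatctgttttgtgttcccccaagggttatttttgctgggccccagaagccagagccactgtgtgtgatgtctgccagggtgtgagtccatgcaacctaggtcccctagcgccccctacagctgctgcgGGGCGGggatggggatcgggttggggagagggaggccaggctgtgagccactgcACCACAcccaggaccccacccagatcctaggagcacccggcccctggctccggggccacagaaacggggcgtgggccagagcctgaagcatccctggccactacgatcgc
Itga1: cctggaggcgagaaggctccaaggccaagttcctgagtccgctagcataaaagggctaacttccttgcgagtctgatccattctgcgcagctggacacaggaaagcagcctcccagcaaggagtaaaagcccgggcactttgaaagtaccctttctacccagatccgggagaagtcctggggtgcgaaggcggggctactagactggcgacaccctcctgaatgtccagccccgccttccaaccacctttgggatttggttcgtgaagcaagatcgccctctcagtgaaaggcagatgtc

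Searched on both strands were GGGCGG (the box of Sp and KLF factors), TGTGGT (the RUNX core), CCGGAAG (an ETS core) and a form of the NFκB site (GGGA and TTCC with any 2 bases between them), of which no match overlapped another in these windows. The *Itga4* window held 1 GGGCGG at position 137 and, on the opposite strand, 1 TGTGGT at position 191, counted from the first base shown. The *Itga1* window held none of the 4. GGGCGG is in 35.7% of all 32851 promoters of the table, TGTGGT in 16.8%, CCGGAAG in 8.86% and the NFκB form in 1.47%. *Itgav*, *Itgb1* and *Itga2* each had 1 GGGCGG and *Itgb7* had none of the 4, and the NFκB form was in none of the 6 windows. These matches are letters in a window and not shown binding sites.

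*Itgal*, the alpha chain of LFA-1 on chromosome 7 from 126895432 to 126934320, spread far more within the genotypes. It had 40.0, 67.7 and 27.0 CPM in CD4cre, 0.646, 2.98, 35.96, 16.7 and 14.5 CPM in CD4IKK1, and 140, 240 and 213 CPM in CD4NIK libraries. CD4IKK1 replicate 3 lay within the CD4cre range and the other CD4IKK1 libraries under it, whereas all CD4NIK libraries were above all others. The beta chain of LFA-1, *Itgb2* on chromosome 10 from 77366086 to 77401542, was listed with 4.77, 10.5 and 3.21 CPM in CD4cre, with 0, 1.26, 12.8, 5.67 and 0.0451 CPM in CD4IKK1, and with 13.3, 14.3 and 6.14 CPM in CD4NIK libraries. The 3 genotypes overlapped for *Itgb2*, and within CD4IKK1 it went from 0 counts in replicate 1 and 1 count in replicate 5 to 226 counts in replicate 3.

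**Figure D1:**
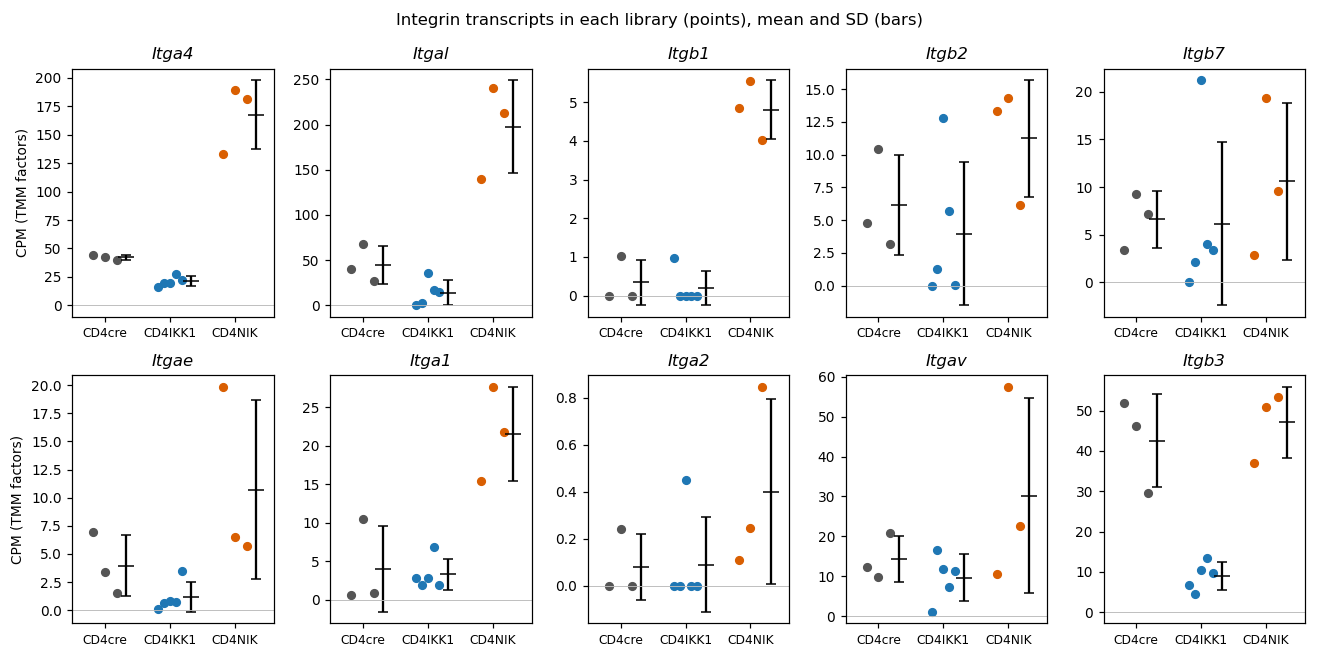
Each panel plots 1 integrin gene in CPM (linear axis) for the 3 CD4cre, 5 CD4IKK1 and 3 CD4NIK libraries as points, with the mean and SD of each group as a bar beside them. *Itga4*, *Itgal*, *Itgb1* and *Itga1* have all CD4NIK points above all others, whereas for *Itgb3* the CD4IKK1 points, from 4.40 to 13.4 CPM, lie under the rest.

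Of the beta chains that pair with *Itga4*, *Itgb1* lies on chromosome 8 from 129411876 to 129460618 and was listed with 0, 21 and 0 counts in CD4cre, with 15, 0, 0, 0 and 0 counts in CD4IKK1, and with 88, 113 and 57 counts in CD4NIK libraries. The CD4NIK libraries stood above the rest, at 4.81 ± 0.767 CPM (SD, n = 3), while 1 library in each of the other groups held all counts of its group. *Itgb7*, on chromosome 15 from 102124429 to 102140379, had 3.38, 9.29 and 7.22 CPM in CD4cre, 0, 2.15, 21.3, 4.08 and 3.38 CPM in CD4IKK1, and 2.92, 19.3 and 9.60 CPM in CD4NIK libraries. All 3 genotypes overlapped, and the highest *Itgb7* value of all libraries was in CD4IKK1 replicate 3. *Itgae*, the partner of *Itgb7* in tissue retention, lies on chromosome 11 from 72981409 to 73039917. It had 6.92, 3.41 and 1.55 CPM in CD4cre, 0.0646, 0.681, 0.792, 0.745 and 3.47 CPM in CD4IKK1, and 19.9, 6.49 and 5.72 CPM in CD4NIK libraries. *Itgae* was under the CD4cre range in CD4IKK1 replicates 1 to 4, and its CD4NIK values lay above every CD4IKK1 library but overlapped with CD4cre.

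*Itga1*, the alpha chain of a collagen receptor on activated and tissue T cells, lies on chromosome 13 from 115089632 to 115238677. It had 0.653, 10.5 and 0.852 CPM in CD4cre, 2.84, 1.94, 2.88, 6.86 and 1.94 CPM in CD4IKK1, and 15.4, 27.6 and 21.7 CPM in CD4NIK libraries. The CD4NIK libraries were above the rest, and CD4cre replicate 2 had 215 of the 249 *Itga1* counts of its group. *Itga2*, the alpha chain of the other collagen receptor, on chromosome 13 from 114969617 to 115068636, had 0, 5 and 0 counts in CD4cre, 0, 0, 8, 0 and 0 counts in CD4IKK1, and 2, 5 and 12 counts in CD4NIK libraries. It passed the expression filter in no comparison, so no fold change is given for it. *Itgav*, the alpha chain of vitronectin receptors on chromosome 2 from 83554403 to 83637260, had 12.3, 9.83 and 20.8 CPM in CD4cre, 0.969, 16.6, 11.9, 7.41 and 11.3 CPM in CD4IKK1, and 10.4, 57.5 and 22.7 CPM in CD4NIK libraries. The genotypes overlapped for *Itgav*, which was lowest in CD4IKK1 replicate 1.

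*Itgb3*, the beta chain that pairs with the *Itgav* product on many cells and with the *Itga2b* product on platelets, lies on chromosome 11 from 104498826 to 104561302 and followed an order of its own. It had 51.9, 46.2 and 29.6 CPM in CD4cre, 6.79, 4.40, 10.6, 13.4 and 9.78 CPM in CD4IKK1, and 37.0, 50.9 and 53.4 CPM in CD4NIK libraries. Every CD4IKK1 library was under every CD4cre and every CD4NIK library, whereas the CD4cre and CD4NIK libraries overlapped. Means were 42.6 ± 11.6, 8.99 ± 3.49 and 47.1 ± 8.83 CPM (SD, n = 3, 5 and 3). Over all 11 libraries, the genes whose log2 CPM was most like that of *Itgb3* were *Cebpb* (Pearson's r = 0.981), *Zfp652* (0.978) and *Lyz2* (0.975), the last of them the lysozyme gene of myeloid cells, where all points share the libraries and their depth. The sum of 11 myeloid markers ran from 440 to 1847 CPM in CD4cre, from 98.7 to 256 CPM in CD4IKK1 and from 634 to 950 CPM in CD4NIK libraries, with 10 or 11, 7 to 11 and 10 or 11 of the markers above 0, and *Adgre1* at 0 in 7 of the 11 libraries. Of 9 markers of platelets and megakaryocytes, *Pf4*, *Itga2b*, *Gp5*, *Gp1ba* and *Gp6* had their highest mean in CD4cre. *Gp1bb*, *Gp9* and *Tubb1* had it in CD4IKK1 and *Ppbp* in CD4NIK libraries, and *Gp9* and *Ppbp* were at 0 in all CD4cre libraries. The sum of the 9 ran from 15.9 to 35.5, from 5.71 to 22.3 and from 9.44 to 16.7 CPM in CD4cre, CD4IKK1 and CD4NIK libraries. *Pf4*, the platelet factor 4 gene, had 7.21 ± 5.44 CPM in CD4cre, 1.16 ± 0.651 CPM in CD4IKK1 and 3.33 ± 0.686 CPM in CD4NIK libraries (SD, n = 3, 5 and 3). *Gp1bb* had 5.08 ± 6.075, 5.70 ± 4.77 and 2.99 ± 2.87 CPM in the same order. The part of these transcripts in the *Itgb3* values was not tested.

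By the same measure, the genes nearest to *Itgal* over the 11 libraries were the lymphocyte GTPase gene *Gimap7* (Pearson's r = 0.995), *Spn*, which encodes the leukocyte mucin CD43 (0.994), and the lymphotoxin gene *Lta* (0.993). For *Itgae* they were *Cox10* (0.968), *Tgfbr2*, a chain of the TGF-beta receptor (0.965), and *Zkscan6* (0.961), and for *Itgb1*, with 0 counts in 6 libraries, *Fcrl1* (0.971), *Gm6501* (0.956) and *Pou2af1* (0.950).

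Relative to T cell transcripts, the genotypes overlapped for *Itgal*. Per 1000 Pan T counts, *Itgal* had 12.8, 26.5 and 16.3 counts in CD4cre, 37.0, 19.4, 25.01, 24.6 and 24.2 counts in CD4IKK1, and 16.4, 20.8 and 16.9 counts in CD4NIK libraries. These ratios stayed within 12.8 to 37.0 while the Pan T counts themselves ran from 270 to 234649. *Itga4* had 14.1, 16.7 and 23.9 counts per 1000 Pan T counts in CD4cre, 911, 129, 13.5, 41.1 and 36.7 in CD4IKK1, and 15.6, 16.4 and 14.3 in CD4NIK libraries. The ratio of *Itga4* was thus highest in the 2 libraries with the fewest Pan T counts (246 and 379 *Itga4* counts), and all 3 CD4NIK libraries lay within the CD4cre range. *Itgb3* had 16.6, 18.1 and 17.9 counts per 1000 Pan T counts in CD4cre, 389, 28.5, 7.35, 19.8 and 16.3 in CD4IKK1, and 4.34, 4.41 and 4.22 in CD4NIK libraries. On this scale *Itgb3* was lower in every CD4NIK library than in every other library, whereas in CPM it was not. *Itgb7* had 1.08, 3.64 and 4.35 counts per 1000 Pan T counts in CD4cre, 0, 13.9, 14.8, 6.02 and 5.64 in CD4IKK1, and 0.343, 1.68 and 0.759 in CD4NIK libraries, so that it was lower in CD4NIK than in 4 of 5 CD4IKK1 libraries and overlapped with CD4cre. *Itga1* ran from 0.208 to 4.10 in CD4cre, from 2.01 to 163 in CD4IKK1 and from 1.72 to 2.39 in CD4NIK libraries, and *Itgae* from 0.936 to 2.21, from 0.550 to 5.79 and from 0.452 to 2.33. The ratios of *Itga1* and *Itgae* in CD4NIK overlapped with both other groups. *Itgav* ran from 3.85 to 12.5, from 8.26 to 108 and from 1.22 to 4.99, and *Itgb2* from 1.52 to 4.10, from 0 to 8.89 and from 0.485 to 1.56. *Itgb1* had 0.318 to 0.569 in CD4NIK libraries, 0.4 in CD4cre replicate 2 and 55.6 in CD4IKK1 replicate 1, and was at 0 in the other libraries. *Itga2* was at 0 in most libraries outside CD4NIK.

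**Figure D2:**
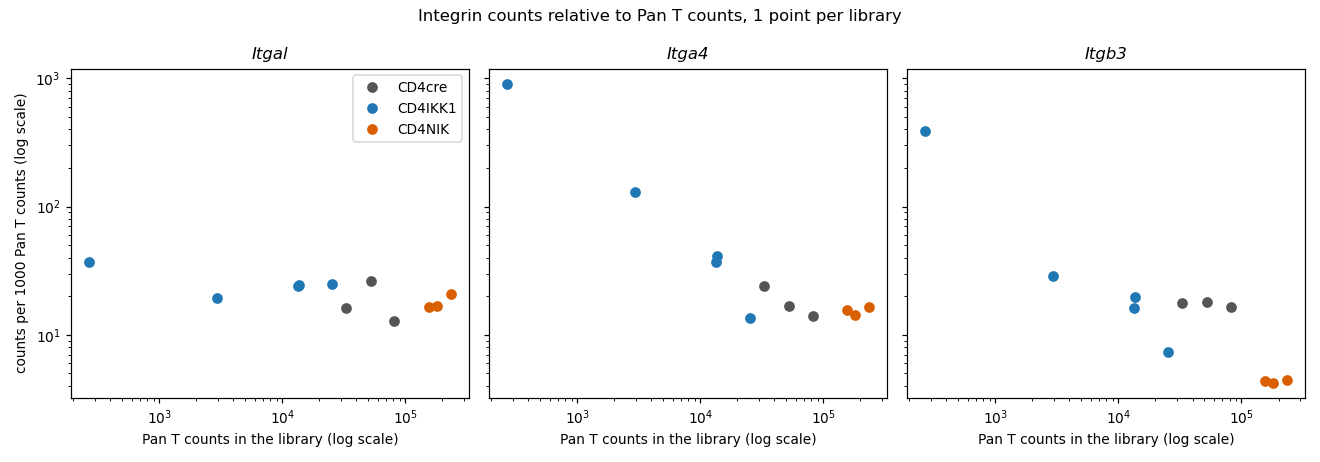
Each point is 1 library, with the summed counts of 16 Pan T transcripts on a logarithmic horizontal axis and the counts of *Itgal*, *Itga4* or *Itgb3* per 1000 Pan T counts on a logarithmic vertical axis. *Itgal* stays between 12.8 and 37.0 over the whole range, *Itga4* rises to 911 in the library with the fewest Pan T counts, and *Itgb3* is at 4.22 to 4.41 in the 3 CD4NIK libraries.

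The first comparison set libraries labelled CD4IKK1, in which *Chuk* counts overlapped with the control, against CD4cre. Between CD4IKK1 and CD4cre libraries, 8 of the 10 integrin genes passed the expression filter, and *Itgb1* and *Itga2* did not. A gene was called when its Benjamini-Hochberg adjusted p in edgeR's quasi-likelihood test was under 0.05 and its groups differed over 2-fold. Of the 8, 0 were called, beside 0% of all 15653 genes in either direction. At an unadjusted p under 0.05, *Itga4* and *Itgb3* were lower, beside 8.91% of all genes, and DESeq2 called 552 genes, *Itga4* and *Itgb3* among them. The log2 fold change was −1.005 (standard error, SE, 0.22, adjusted p 0.0898) for *Itga4* and −2.24 (SE 0.35, adjusted p 0.0551) for *Itgb3* in edgeR's test. These were also the 2 integrin genes with no overlap between the groups, which was found for 8.44% of all genes on the lower and 6.02% on the higher side. For the other 6 genes the fitted values were below 0, from −1.77 for *Itgae* (SE 0.995) and −1.66 for *Itgal* (SE 0.997) to −0.10 for *Itgb7* (SE 1.22). Without CD4cre replicate 2 the values of *Itga1* and *Itgb7* turned to 2.12 and 0.23, and *Itgb7* was also above 0 without CD4IKK1 replicate 1, 2, 4 or 5. The median over the 8 was −0.82, beside 0.02 over all genes and −2.04 over the 16 Pan T genes.

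The second comparison set libraries labelled CD4NIK, in which *Map3k14* counts overlapped with the control, against the same CD4cre libraries. Between CD4NIK and CD4cre libraries, 9 integrin genes were tested, all but *Itga2*, and 2 of them were called higher, beside 10.4% of all 15209 genes (6.99% were called lower). These were *Itga4*, with a log2 fold change of 1.98 (SE 0.20, adjusted p 0.00230), and *Itgal*, with 2.12 (SE 0.36, adjusted p 0.00950 in edgeR's quasi-likelihood test). With all 11 libraries in the fit, *Itgal* was no longer called (adjusted p 0.198 in the same test). Groups did not overlap for 4 of the 9, *Itga4*, *Itgal*, *Itgb1* and *Itga1*, all higher in CD4NIK, beside 22.9% of all genes on the higher and 22.4% on the lower side. *Itgb1* and *Itga1* had fitted values of 3.80 (SE 1.47, adjusted p 0.0975) and 2.42 (SE 0.97, adjusted p 0.108), and CD4cre replicate 2 held most of the control counts of both. Without it, *Itga1* was at 4.84 and called in edgeR's test, and *Itgb1* was left with controls at 0, which fixes its call. With no library left out, *Itgb1* passed the filter only in fits that held CD4NIK libraries, where it is high. *Itgb3* was at 0.13 (SE 0.27). The median over the 9 was 1.43, beside −0.02 over all genes and 2.06 over the Pan T genes.

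CD4IKK1 and CD4NIK libraries were compared directly in 1 fit of all 11 libraries, which shares its samples with the comparisons above. Of 9 integrin genes tested, 5 were called lower in CD4IKK1, beside 18.5% of all 16546 genes (14.8% were called higher). They were *Itga4* (log2 fold change −3.00, SE 0.19, adjusted p 9.45e-06), *Itgal* (−3.80, SE 0.92, adjusted p 0.00872), *Itgae* (−3.20, SE 0.89, adjusted p 0.0120), *Itga1* (−2.71, SE 0.78, adjusted p 0.0142) and *Itgb3* (−2.39, SE 0.33, adjusted p 0.000204 in edgeR's quasi-likelihood test). The groups did not overlap for these 5 and for *Itgb1*, beside 24.4% of all genes on the lower and 20.7% on the higher side. Without CD4NIK replicate 1 *Itgae* was no longer called (adjusted p 0.0780), and without CD4NIK replicate 2 *Itga1* was not (adjusted p 0.0512 in the same test). *Itgb2*, *Itgb7* and *Itgav* were at −1.51, −0.78 and −1.65, with SEs of 1.30, 1.15 and 0.69. The median over the 9 was −2.71, beside 0.06 over all genes and −4.06 over the Pan T genes. Of the 16 Pan T genes, 0, 13 and 15 were called in the 3 comparisons, beside 0%, 10.4% and 18.5% of all genes on the same side. All of these Pan T calls were higher in CD4NIK, and the part of this difference in the integrin values was not tested. The sum of 6 markers of CD8+ T and NK cells ran from 22.8 to 54.9 CPM in CD4cre, from 2.13 to 15.4 CPM in CD4IKK1 and from 88.2 to 174 CPM in CD4NIK libraries, with 5, 2 to 5 and 5 or 6 of the 6 above 0 and *Cd8a* at 0 in 3 of the CD4IKK1 libraries. The sum of 9 kidney tubule markers ran from 18.45 to 88.1, from 3.51 to 11.98 and from 15.7 to 113 CPM, with 7 to 9, 4 to 8 and 8 or 9 above 0. The part of these transcripts in the integrin values was not tested either.

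**Figure D3:**
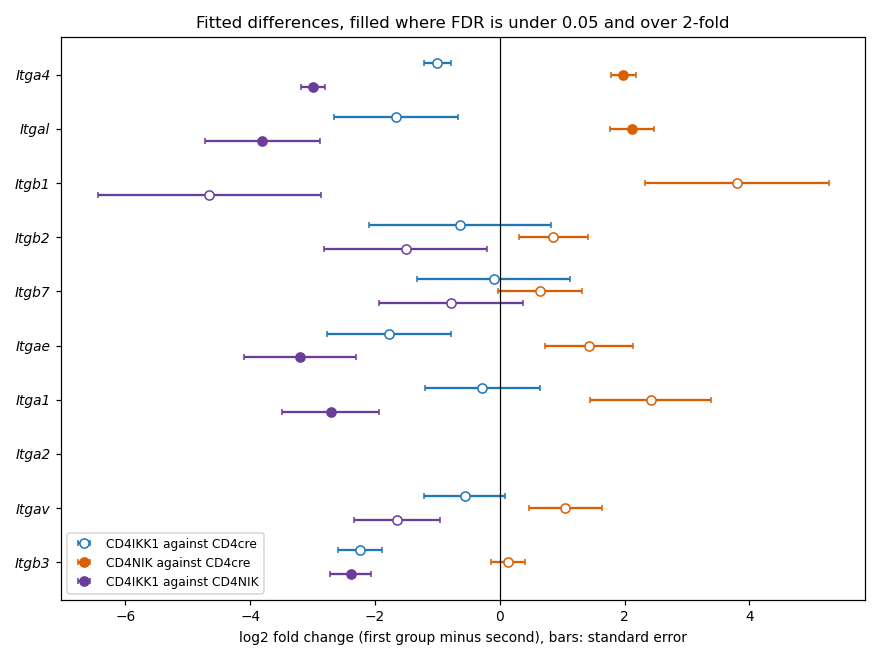
Points are fitted log2 fold changes (first group minus second) of the integrin genes in the 3 comparisons, bars are SEs, and filled points were called. *Itga4* has the shortest bars, at −1.005, 1.98 and −3.00, and *Itga2* was not tested.

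The other 16 integrin chains, which the choice of the 10 did not use, were tested in the same fits. Between CD4IKK1 and CD4cre 0 of 13 were called in edgeR's test (1 was lower at an unadjusted p under 0.05, beside 8.91% of all genes), between CD4NIK and CD4cre 1 of 12 was called lower, beside 6.99% of all genes, and between CD4IKK1 and CD4NIK 1 of 15 was called higher, beside 14.8% of all genes. The medians were −0.01, −0.20 and 0.12. *Itga2b*, the platelet alpha chain, was called lower in CD4NIK, from 8.80 ± 1.34 to 3.22 ± 0.132 CPM (SD, n = 3 each; log2 fold change −1.46, SE 0.42, adjusted p 0.0409 in edgeR's quasi-likelihood test), but in 0 of the 6 fits that left out a library. *Itgb8*, which with the *Itgav* chain binds latent TGF-beta, was higher in CD4IKK1, at 17.8 ± 4.05 CPM (SD, n = 5), than in CD4NIK, at 7.04 ± 0.747 CPM (SD, n = 3; log2 fold change 1.34, SE 0.42, adjusted p 0.0203 in the same test), a call lost without any 1 of the CD4NIK libraries. The myeloid alpha chain *Itgam* was listed at 0 in all CD4cre libraries and had at most 54 counts in any library.

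Among genes that switch integrins on and tie them to actin, the calls in CD4NIK were mostly on the higher side. Of 23 tested genes of this list, 12 were called higher and 1 lower against CD4cre, beside 10.4% and 6.99% of all genes. Of the 12, 6 remained called without CD4cre replicate 3, 7 without CD4NIK replicate 3, 8 without CD4cre replicate 2 or CD4NIK replicate 2, and 5 in all 6 fits that left out a library. In CD4IKK1 against CD4NIK, 14 of 25 were called lower and 3 higher, beside 18.5% and 14.8% of all genes, and the 14 remained called in all 11 such fits. Of 24 tested between CD4IKK1 and CD4cre, 0 were called, and 12 were lower and 2 higher at an unadjusted p under 0.05 in edgeR's quasi-likelihood test, beside 8.91% and 7.65% of all genes. The largest called rises against CD4cre were those of *Stk4*, the MST1 kinase (2.76, SE 0.67), *Zyx*, which encodes the focal adhesion protein zyxin (2.49, SE 0.26), *Parvg*, an actin linker of leukocytes (2.24, SE 0.36), and *Skap1*, an adaptor of T cell receptor signals to integrins (2.23, SE 0.28), with adjusted p values of 0.0261, 0.00239, 0.00798 and 0.00401 in the same test. *Zyx*, *Parvg* and *Skap1* were called in all 6 fits that left out a library, and *Stk4* in 2, those without CD4cre replicate 3 or CD4NIK replicate 1. Between CD4IKK1 and CD4NIK, *Zyx*, *Parvg* and *Skap1* were at −4.52, −4.59 and −4.38. *Rapgef1*, an activator of the small GTPase RAP1, had 2 or 3 counts in each CD4NIK library and between 14 and 596 counts in the CD4IKK1 libraries, and its call was lost without any 1 of the CD4NIK libraries.

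Kindlin-3 and talin-1, which bind the beta chain tails, gave different patterns. *Fermt3*, the gene of kindlin-3, had 104 ± 38.0 CPM in CD4cre, 17.0 ± 13.8 CPM in CD4IKK1 and 341 ± 28.9 CPM in CD4NIK libraries (SD, n = 3, 5 and 3), and rose in CD4NIK against CD4cre (log2 fold change 1.70, SE 0.27, adjusted p 0.00765 in edgeR's quasi-likelihood test). *Tln1*, the gene of talin-1, had 61.8 ± 4.82, 83.8 ± 11.9 and 61.6 ± 10.4 CPM in the same order and was not called in any comparison, though CD4IKK1 exceeded CD4NIK by 0.44 (adjusted p 0.0471 in the same test, under 2-fold). *Tln2*, its relative outside leukocytes, was the 1 gene of the list called lower in CD4NIK against CD4cre, of 7 with fitted values below 0, and went from 30.9 ± 3.06 to 12.1 ± 4.65 CPM (SD, n = 3 each; log2 fold change −1.36, adjusted p 0.0327 in the same test). It was called in 1 of 6 fits that left out a library, the one without CD4NIK replicate 1. In CD4IKK1 against CD4NIK, *Tln2* (1.44, adjusted p 0.00193) and *Fermt2*, the gene of kindlin-2 (1.93, adjusted p 0.000620 in the same test), were higher in CD4IKK1 and were called in all 11 such fits. Of the 7 neuronal transcripts, 5 were called lower in CD4NIK against CD4cre, beside 6.99% of all genes, and 5 higher in CD4IKK1 against CD4NIK, beside 14.8%, and their part in the *Tln2* values was not tested.

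Among 17 integrin ligands, *Icam1*, the ligand of LFA-1, was the 1 gene of 12 tested that was called in CD4NIK against CD4cre, and 6 of the 12 had fitted values above 0. That count of 1 stands beside 10.4% of all genes called higher. It had 64.7 ± 5.51 CPM in CD4cre, 12.4 ± 7.25 CPM in CD4IKK1 and 265 ± 60.8 CPM in CD4NIK libraries (SD, n = 3, 5 and 3), with no overlap between any of the groups. Its log2 fold change was 2.02 (SE 0.21, adjusted p 0.00239) between CD4NIK and CD4cre and −2.38 (SE 0.48, adjusted p 0.0878) between CD4IKK1 and CD4cre in edgeR's quasi-likelihood test. Between CD4IKK1 and CD4NIK, *Icam1* (−4.42, adjusted p 0.000102) and *Icam2* (−3.71, adjusted p 0.00596 in the same test) were lower, 2 of 13 tested, beside 18.5% of all genes. *Vcam1*, the ligand of VLA-4, had 5.26 ± 5.27, 2.36 ± 1.78 and 2.96 ± 2.36 CPM and was not called in any comparison.

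Rolling on vessel walls precedes arrest by integrins. Of 7 genes of rolling receptors, all had fitted values above 0 in CD4NIK against CD4cre, where 5 were called higher (10.4% of all genes), and all had fitted values below 0 in CD4IKK1 against CD4NIK, where 6 were called lower (18.5% of all genes). Of the 7, 0 were called between CD4IKK1 and CD4cre in edgeR's test, 5 were lower at an unadjusted p under 0.05, beside 8.91% of all genes, and 5 did not overlap, beside 8.44%. *Cd44*, the hyaluronan receptor, had 23.5 ± 9.13 CPM in CD4cre, 7.24 ± 5.63 CPM in CD4IKK1 and 156 ± 12.1 CPM in CD4NIK libraries (SD, n = 3, 5 and 3), and *Selplg*, the ligand of selectins, had 326 ± 122, 57.3 ± 44.95 and 1173 ± 144 CPM. *Cd44*, *Selplg*, *Spn* and *Fut7*, the enzyme that builds selectin ligands, rose in CD4NIK by 2.72, 1.84, 1.75 and 1.72 on the log2 scale (adjusted p 0.00255, 0.00840, 0.00752 and 0.0499 in edgeR's quasi-likelihood test). The call of *Fut7* against CD4cre was lost in all 6 fits that left out a library, *St3gal4*, the fifth called gene, was called in 2 of 6, and the other 3 were called in all 6. *Fut7* was at 0 in 4 of 5 CD4IKK1 libraries. Of 11 retention and egress genes, all had fitted values above 0 in CD4NIK against CD4cre, where 5 were called higher (10.4% of all genes). All had fitted values below 0 in CD4IKK1 against CD4NIK, where 10 were called lower (18.5% of all genes). *Zfp683*, counted among the 11 and the 10, passed the filter only in fits that held CD4NIK libraries, where it is high. Of the 10, 8 were called in all 11 fits that left out a library, *Ahr* in 6 and *Klf2* in 3. Of the 5, 2 remained called without CD4cre replicate 2 or CD4NIK replicate 3 and 3 without CD4cre replicate 3, and *Tgfbr2* was called in 1 of the 6 fits that left out a library. Between CD4IKK1 and CD4cre 0 of 10 were called in edgeR's test (2 were lower at an unadjusted p under 0.05, beside 8.91% of all genes), and 5 had no overlap between the groups, beside 8.44% of all genes.

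*Cxcr6*, a chemokine receptor of tissue T cells, and *Cd69*, which holds cells back from egress, rose in CD4NIK by 3.71 and 2.97, from 81.6 ± 50.3 to 1073 ± 340 CPM and from 139 ± 101 to 1092 ± 340 CPM (SD, n = 3 each; adjusted p 0.00550 and 0.00969 in edgeR's quasi-likelihood test). *Rgs1*, a brake on chemokine signals, rose by 2.56, and so did *S1pr1*, the receptor that drives egress and opposes *Cd69*, by 2.15 (adjusted p 0.0145 and 0.0189 in the same test). The call of *Rgs1* was lost without CD4cre replicate 2 or CD4NIK replicate 3 and that of *S1pr1* without CD4cre replicate 2 or 3 or CD4NIK replicate 3, whereas *Cxcr6* and *Cd69* were called in all 6 such fits. *Zfp683*, which encodes the residency factor HOBIT, had at most 2 counts in each CD4IKK1 library and between 88 and 978 counts in the CD4NIK libraries (27.9 ± 21.7 CPM, SD, n = 3). The medians of the rolling and of the retention list, 1.72 and 2.07 in CD4NIK against CD4cre, lay near the 2.06 of the Pan T list, as did −3.80 and −4.17 near its −4.06 in CD4IKK1 against CD4NIK. In CD4IKK1 against CD4cre they were −1.70 and −2.69, beside −2.04. When libraries were scaled to the Pan T list, the *Itga4* and *Itgal* differences between CD4NIK and CD4cre were −0.24 (SE 0.38) and −0.04 (SE 0.40), against −2.21 for the median of all genes.

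**Figure D4:**
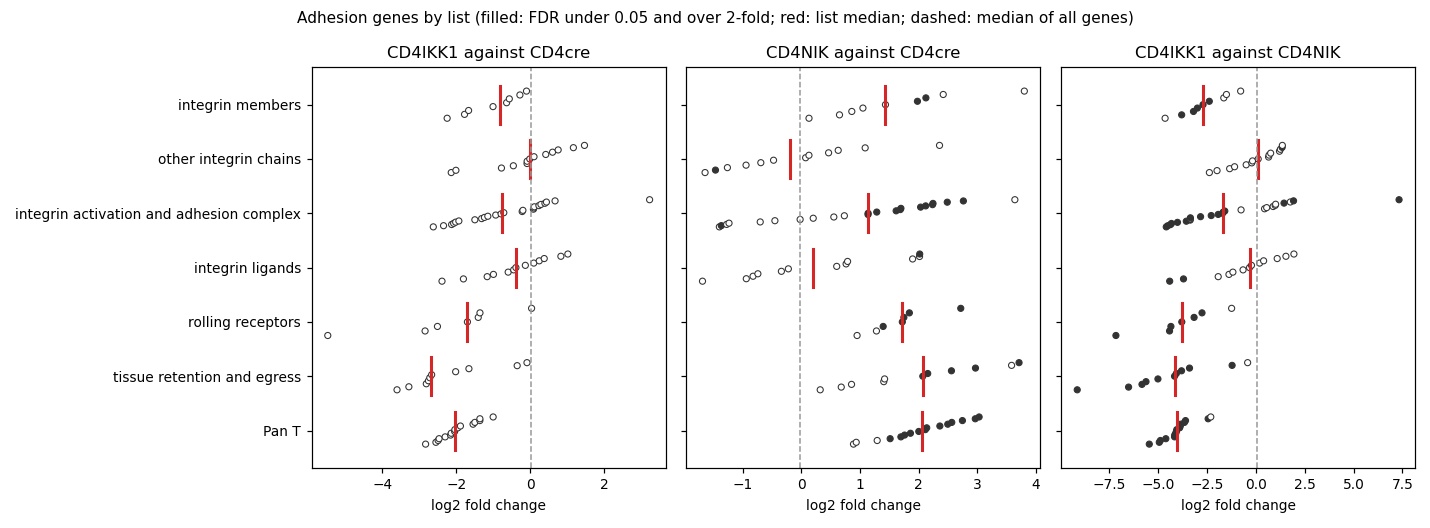
Each point is the fitted log2 fold change of 1 gene in 1 of the 3 comparisons, by gene list, filled where called. Red bars are list medians and the dashed line is the median of all genes. The other integrin chains centre on −0.01, −0.20 and 0.12, whereas the tested integrin genes of the 10 centre on −0.82, 1.43 and −2.71, on the side of the Pan T genes. In CD4IKK1 against CD4NIK, the points of *Rapgef1*, *Zfp683* and *Runx3* rest on a group at or under 3 counts per library, as does that of *Runx3* in CD4IKK1 against CD4cre.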

How the data were processed

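The members and lists were chosen with earlier results of these data known. After Trimmomatic and kallisto, which per the labels and the study's methods trimmed the reads and assigned them to mouse transcripts, the authors deposited estimated counts per gene symbol, without normalization, in 11 libraries. The study names GRCm39 and the submitters' processing notes name mm10. The kallisto version, the annotation and how transcripts were joined are not given in the sources used here. Gene positions are those of GENCODE M39 on GRCm39, which holds 93.6% of the symbols. Between 35.3% and 41.8% of values were not whole, and all were rounded.

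Low counts were removed with filterByExpr, TMM factors lay between 0.8995 and 1.0493, and edgeR (4.0.16, in R 4.3.3) gave robust quasi-likelihood F tests with Benjamini-Hochberg adjustment, a call needing an adjusted p under 0.05 and over 2-fold. The fit held the libraries of the comparison or, for CD4IKK1 against CD4NIK, all 11. Standard errors come from the F statistic. No libraries were identical (0 of 55 pairs). All 10 integrin genes are named. Of each other adhesion list, the genes named are those called with the largest changes (at most 4 per comparison), with *Tln1*, *Fermt3*, *Icam1* and *Vcam1*, and for 4 integrin genes the 3 genes of highest Pearson's r of log2 CPM (prior count 2). 1 gene that this rule names is not reported here. *Itgam*, *Pf4*, *Gp5*, *Gp1ba*, *Gp6*, *Gp1bb*, *Tubb1*, *St3gal4*, *Tgfbr2*, *Ahr*, *Klf2*, *Runx3*, *Tln2*, *Fermt2* and the markers at 0 were named after their values were seen. Alternatives were DESeq2 (1.42.0), RLE factors, scaling to Pan T transcripts, no filter, other libraries in the fit, a replicate block, a fit that is not robust, and leaving out libraries.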

Additional observations from a re-analysis of the deposited data

Results flagged for a closer look

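In the group of 5 CD4IKK1 libraries, Dixon's ratio was computed for each of the 10 integrin genes, and 5 of them had 1 library far from the other 4 (ratio over 0.71). For normally distributed values chance alone gives this in about 1 of 20 groups, but these values are skewed and the 10 genes share the same libraries. *Itgb7* in replicate 3 was at 21.3 CPM, the highest value of all 11 libraries, *Itga1* in replicate 4 was at 6.86 CPM and *Itgae* in replicate 5 at 3.47 CPM. *Itgb1* in replicate 1 was at 0.969 CPM and *Itga2* in replicate 3 at 0.452 CPM, each against 0 in the other 4 libraries, where the ratio is fixed at its maximum. The other groups have 3 libraries and were not examined in this way.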

How the results depend on the processing

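The counts of calls depended on the fit. Between CD4IKK1 and CD4cre, where edgeR's quasi-likelihood test called 0 genes, DESeq2 called 552 (41 higher, 511 lower), RLE factors 1, no filter 48, all 11 libraries 129, the replicate block 3, and the fit without CD4IKK1 replicates 1 and 2 called 36, and leaving out 1 library gave 0 to 23. Of the integrin genes, DESeq2 and the fit of all 11 libraries called 2 (*Itga4* and *Itgb3*), no filter called 1, and leaving out 1 library gave 0 to 1. Between CD4NIK and CD4cre, 2649 genes were called (59.9% of them higher). Scaling to Pan T gave 10675 (1.02% higher), the fit of all 11 libraries 2129 (40.6% higher) and the replicate block 1185 (84.0% higher), and leaving out 1 library gave 674 to 3468, with 1001 without CD4cre replicate 2 (88.3% higher), 859 without CD4cre replicate 3 (90.8%), 918 without CD4NIK replicate 2 (92.8%), 674 without CD4NIK replicate 3 (91.1%) and 3468 without CD4NIK replicate 1 (48.9%). In the first 4 of these the calls on the lower side went from 1063 to between 60 and 117. DESeq2 called 3873 genes (57.1% higher), 4 of them integrin genes. The fit of all 11 libraries called 1 integrin gene, and leaving out 1 library 2 to 4. Scaling to Pan T called 2 lower (*Itgb7* and *Itgb3*), beside 10566 of all genes called lower. Between CD4IKK1 and CD4NIK, 5512 genes were called (44.3% higher), scaling to Pan T gave 14297 (99.6% higher) with 5 integrin genes, all higher where 5 were lower before, and leaving out 1 library gave 4116 to 5556 genes and 4 to 6 integrin genes. The causes were not tested. Leaving out libraries means fewer samples, and so does the block where CD4IKK1 is compared. Between CD4NIK and CD4cre the block kept all libraries and added only its own terms to the fit. Replicate numbers did not pair the libraries (Pearson's r of deviations from the group means between −0.089 and 0.077, best with the own number in 7 of 18 cases).

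Scaling to Pan T moved the median of all genes to 4.87, −2.21 and 7.06 in the 3 comparisons and turned the sign of 24 integrin values. Between CD4IKK1 and CD4cre these were *Itga4* 3.63, *Itgal* 0.48, *Itgb2* 1.08, *Itgb7* 1.46, *Itgae* 1.03, *Itga1* 4.53, *Itgav* 2.57 and *Itgb3* 2.38, and between CD4NIK and CD4cre *Itga4* −0.24, *Itgal* −0.037, *Itgb2* −1.20, *Itgb7* −1.70, *Itgae* −0.43, *Itgav* −1.34 and *Itgb3* −2.02. Between CD4IKK1 and CD4NIK they were *Itga4* 3.86, *Itgal* 0.52, *Itgb1* 4.40, *Itgb2* 2.29, *Itgb7* 3.17, *Itgae* 1.45, *Itga1* 4.22, *Itgav* 3.91 and *Itgb3* 4.39, all under the median of 7.06. Under the other alternatives, 11 of 390 values turned. Between CD4IKK1 and CD4cre, *Itgb7* was at 0.23 without CD4cre replicate 2, at 0.22, 0.12, 0.01 and 0.05 without CD4IKK1 replicate 1, 2, 4 or 5, and at 0.53 without replicates 1 and 2. *Itga1* was at 0.66 with the replicate block and at 2.12 without CD4cre replicate 2, and *Itgb2* at 0.0012 without CD4IKK1 replicates 1 and 2. Between CD4NIK and CD4cre, *Itgb3* was at −0.0465 without CD4cre replicate 3 and *Itgb7* at −0.0683 without CD4NIK replicate 2. Over all fits that left out 1 library, *Itgb7* ran from −1.46 to 0.23 and *Itga1* from −0.78 to 2.12 between CD4IKK1 and CD4cre, and *Itgb7* from −0.0683 to 1.12 and *Itgb3* from −0.0465 to 0.30 between CD4NIK and CD4cre. *Itga2*, with at most 12 counts in any library, did not pass the expression filter. It entered only the fits without that filter, and its values there are not given. The other adhesion genes called were also followed through the fits that left out 1 library, a choice made after seeing the data.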
